A study of Caenorhabditis elegans with 4 samples.

Results

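The peaks described here are the ZHP-3 binding sites called on chromosome III of Caenorhabditis elegans. They were chosen by chromosome name alone: of the 11843 peaks in a list deposited for the whole series (called the combined list here), 2071 lie on III. The lists of the ChIP libraries hold 1053 peaks on III of 5981 in replicate 1 and 1239 of 7001 in replicate 2. All 4 libraries, 2 of ChIP DNA and 2 of input DNA, came from hermaphrodites of strain fem-2(b245), genotype fem-2(b245)III, at 20 °C, so the mutated gene sits on the chromosome described and no wild type stands beside it. The stage label is germline-containing young adult, whereas the growth protocol describes harvest of gravid adults from synchronized cultures. ChIP was done on formaldehyde-fixed worm extract with a rabbit polyclonal antibody against ZHP-3 that had been affinity-purified. Whether separate cultures gave the replicates is not in the labels, so the spread between them may be technical. Whole worms were extracted, and the lists hold no reads, so the depth behind a peak is unknown and so is the cell type it came from. With 1 list per library and no second condition, values along III are descriptions without a test.

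ZHP-3 is a RING-finger protein related to budding yeast Zip3. In meiotic prophase it loads along the synaptonemal complex, the protein structure that joins paired homologous chromosomes, and later concentrates at the sites that become crossovers. Crossovers of the worm's autosomes fall mainly on the outer parts of each chromosome, the arms, while the gene-dense centre recombines little. For that reason III was divided at 3.722 Mb and 10.34 Mb by peak midpoint into a left arm, a centre and a right arm, with the tips counted as arm.

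In the combined list, chromosome III carried 150.2 peaks per Mb, which covered 7.15% of its length. It held 17.5% of the combined nuclear peaks on 13.7% of the nuclear length. The left arm had 473 combined peaks (127 per Mb), the centre 1031 (156 per Mb) and the right arm 567 (165 per Mb). In replicate 1 the left arm had 66.9 peaks per Mb, the centre 79.8 and the right arm 80.1. In replicate 2 the left arm had 70.9, the centre 99.7 and the right arm 91.5. The left arm was thus the sparsest part of III in all 3 lists. The order of centre and right arm was not the same in the 3 lists: the right arm was densest in the combined list, the centre in replicate 2, and the 2 parts were nearly level in replicate 1.

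Set as a ratio, the arms together had 145 combined peaks per Mb and the centre 156, a log2 ratio of -0.10. The replicate lists gave a mean of -0.21 ± 0.13 (SD, n = 2). The right arm exceeded the left arm by 0.37 on the log2 scale in the combined list and by 0.31 ± 0.08 (SD, n = 2) in the replicate lists. The difference between the arms pointed the same way in both replicates. Their spread, from 2 libraries, may be technical and gives no test of that difference. The difference was smaller among strong peaks, 0.18 in the upper 50% of the combined list by score and 0.15 in the upper 25%. Among combined peaks found in both replicates it was 0.20, and among those found in neither 0.45. With III cut into 3 equal parts instead, a division added after the data were seen, these values were 0.02 and 0.26. So divided, the whole lists gave 0.23 in the combined list, 0.10 in replicate 1 and 0.23 in replicate 2. The arms were below the centre in both replicates, by -0.12 in replicate 1 and -0.30 in replicate 2.

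Combined peaks at the bounds themselves all scored below the combined median of III, 12.97. The last combined peak of the left arm spanned 3719585 to 3719804 (WS220) and scored 10.4, and the first of the centre lay from 3726490 to 3726808 with 12.6. At the other bound the last peak of the centre lay from 10339103 to 10339513 with 1.62, and the first of the right arm from 10351549 to 10351912 with 10.4. The score is the peak caller's own value for each peak. Its scale is not named in the files, and it serves here only to order, describe or divide the peaks of 1 list or, between the replicates, to set peaks of the same place side by side.

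Along III, counts were taken in 28 windows of 500 kb, the last of which spans 0.284 Mb. The median window held 71.5 peaks in the combined list, 36.5 in replicate 1 and 43 in replicate 2. Replicate 1 was the most even, with 26 to 48 peaks a window, against 28 to 84 in replicate 2 and 46 to 128 in the combined list. Replicate 2 had more peaks than replicate 1 in 22 windows, fewer in 5 and as many in 1. The window counts of the replicates went together, Spearman's rho being 0.71 and Pearson's r 0.70 over the 28 windows of the same chromosome, given as a description.

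**Figure D1:**
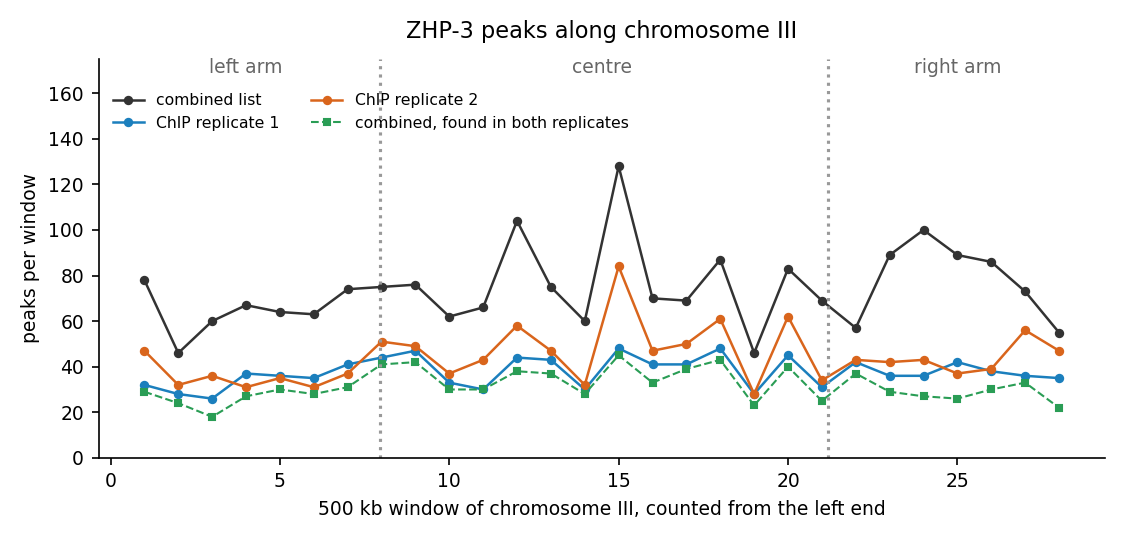
Number of ZHP-3 peaks (vertical axis) in each 500 kb window of chromosome III (horizontal axis, counted from the left end) for the combined list, each ChIP replicate, and the combined peaks also found in both replicates; dotted lines mark the domain bounds. Window 15 is the fullest of the combined list, with 128 peaks, and windows 23 to 26 of the right arm hold 86 to 100 combined peaks while the peaks found in both replicates stay between 26 and 30.

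The fullest windows of the combined list lay in the centre from 7.0 to 7.5 Mb (128 peaks) and from 5.5 to 6.0 Mb (104), and on the right arm from 11.5 to 12 Mb (100). In replicate 1 these windows held 48, 44 and 36 peaks, and in replicate 2 they held 84, 58 and 43. By number, the first of them was the fullest in all 3 lists, shared in replicate 1 with the window from 8.5 to 9.0 Mb, which also held 48. Per Mb, the short last window was denser than it in replicate 1, with 123 peaks against 96. In replicate 2 these windows had 166 and 168 per Mb. Peaks covered 14.4% of the last window in the combined list, 10.5% in replicate 1 and 12.6% in replicate 2, the highest cover in each list. In replicate 1 the next fullest ran from 4.0 to 4.5 Mb, with 47, and in replicate 2 the next fullest were from 9.5 to 10 Mb, with 62, and from 8.5 to 9.0 Mb, with 61. Although it lies in the centre, the stretch between 9.0 and 9.5 Mb was among the emptiest in all 3 lists, with 46 combined peaks, 28 in replicate 1 and 28 in replicate 2. That between 0.5 and 1.0 Mb tied with it in the combined list (46) and in replicate 1 (28). The emptiest of replicate 1 ran from 1.0 to 1.5 Mb, with 26 peaks. In replicate 2 the windows from 1.5 to 2.0 Mb and from 2.5 to 3.0 Mb followed with 31 each, and of the combined list the short last window, with 55, was next after those with 46 by number but had 194 peaks per Mb.

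How the combined peaks were distributed depended on whether the replicate lists also held them. Over all 6 nuclear chromosomes, 42.4% of combined peaks overlapped a peak in both replicate lists by at least 1 bp. On III the number was 885, or 42.7% (Wilson 95% interval 40.6 to 44.9, for counting error only), close to that background. A further 140 overlapped replicate 1 alone, 298 replicate 2 alone and 748 neither. The share found in neither was 36.1% on III, against 37.5% on the other 5 chromosomes.

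Peaks found in both replicates were densest in the centre of III. They numbered 53.7 per Mb on the left arm, 71.5 in the centre and 61.6 on the right arm. Peaks found in neither numbered 49.7 per Mb on the left arm, 49.7 in the centre and 67.9 on the right arm. On the log2 scale the arms accordingly differed from the centre by -0.31 for peaks found in both and 0.23 for peaks found in neither. Among the 6 chromosomes, this value of III was the lowest for peaks found in both, where II had -0.29 and X 0.07, and the second highest for peaks found in neither, where I had 0.36. The bounds of the other chromosomes are approximate: they were recalled from published recombination domains and not checked against a source, so these ranks are a rough background. With every chromosome cut into 3 equal parts instead, a division added after the data were seen, III had -0.20 for peaks found in both, behind II with -0.22, and 0.18 for peaks found in neither, again second to I with 0.47. The peaks found in replicate 2 alone were also centred, with 26.4 per Mb in the centre against 12.9 on the left arm and 21.8 on the right arm. Those of replicate 1 alone were fewest in the centre, with 8.16 per Mb against 10.7 and 13.4.

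**Figure D2:**
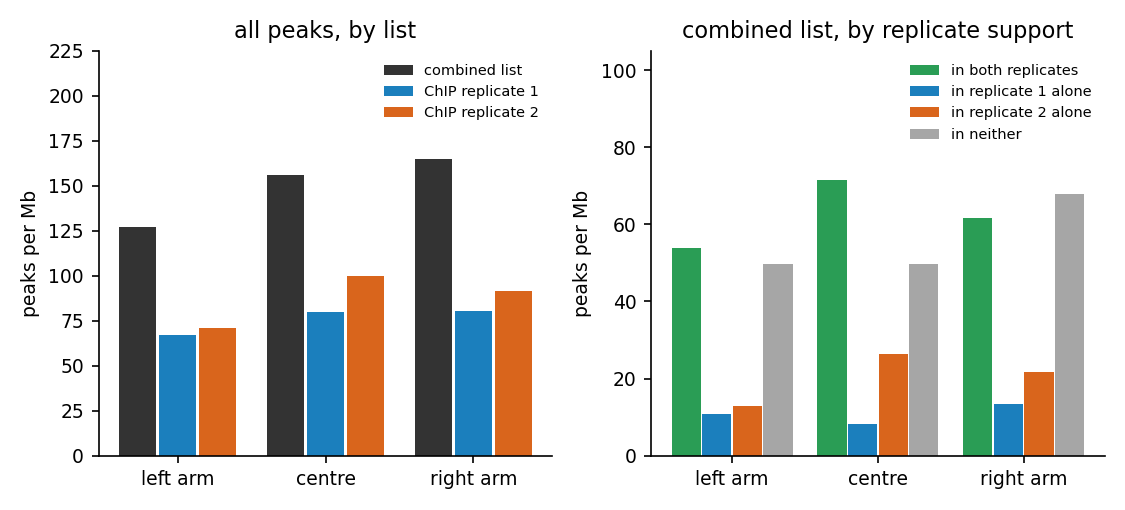
Peaks per Mb (vertical axes) in the left arm, centre and right arm of chromosome III, for each list (left panel) and for the combined list divided by whether a peak overlaps one in both replicates, in 1 of them or in neither (right panel); each bar is 1 list, so there are no error bars. The left arm is lowest in each list, peaks found in both replicates are densest in the centre (71.5 per Mb), and peaks found in neither are densest on the right arm (67.9 per Mb).

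Among combined peaks, those found in both replicates made up 42.3% on the left arm (37.9 to 46.8), 45.9% in the centre (42.9 to 48.9) and 37.4% on the right arm (33.5 to 41.4). The intervals of centre and right arm do not overlap, but they hold counting error only and treat neighbouring peaks as independent. This is therefore no test of a difference between the domains. With the recalled bounds the arms were below the centre on every chromosome in the combined list, by the least on V, with 39.6% on the arms and 39.7% in the centre. With 3 equal parts III had 41.6% on the arms and 44.9% in the centre, while IV, with 43.2% and 42.3%, and V, with 39.7% and 39.5%, went the other way. The part of the right arm from 11 to 13 Mb, a block picked after its values were seen, held 42.8 peaks found in neither replicate per window, against 24.04 in the other 24 windows. Peaks found in both averaged 28 per window there and 32.2 elsewhere. Replicate 1 had 38 peaks per window in the block and 37.5 elsewhere, and replicate 2 had 40.2 and 44.9. The excess of this block was therefore in the combined list and not in either replicate list.

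The median width of combined peaks on III was 335 bp (quartiles 231 and 537), against 322 bp on the other 5 chromosomes. In replicate 1 the medians were 469 bp on III and 448.5 bp on the others, and in replicate 2 they were 461 and 438 bp. The median width of III was the highest of the 6 chromosomes in the combined list and in replicate 2, and level with that of II in replicate 1. Peaks of 1 kb or more made up 7.05% of the combined peaks of III and 7.08% of those on the others, so the wider median did not come with a larger share of broad peaks.

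Within III, centre peaks were slightly wider than arm peaks. Combined medians were 320 bp on the arms and 355 bp in the centre. In replicate 1 they were 454 and 482.5 bp, and in replicate 2 they were 441 and 471.5 bp, so the direction was the same in all 3 lists. Among combined peaks found in both replicates the medians were 515.5 bp on the arms and 524 bp in the centre, a difference of 8.5 bp in place of 35. Such peaks had a median width of 518 bp over the whole chromosome and peaks found in neither 219 bp. Width went with score in every part of III: Spearman's rho was 0.67 across the combined peaks, 0.82 in replicate 1 and 0.85 in replicate 2, a relation across peaks of 1 list.

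Neighbouring peaks on III were close together. The median gap from the end of a combined peak to the start of the next was 2660 bp (quartiles 608 and 8029), against 3432 bp on the other chromosomes. In replicate 1 the median gaps were 6552 bp on III and 8425 bp elsewhere, and in replicate 2 they were 5268 and 6989 bp. III had the shortest median gap of the 6 chromosomes in all 3 lists, as it had the highest density. Relative to its own mean gap, the median of III was 0.43 in the combined list, 0.52 in replicate 1 and 0.50 in replicate 2. The other chromosomes ran from 0.38 to 0.47, from 0.46 to 0.56 and from 0.43 to 0.55, so relative to its density the spacing of III lay within the range of the others.

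The left arm had the longest median gaps, 3124 bp in the combined list, 7846 bp in replicate 1 and 7801 bp in replicate 2. The centre had 2588, 6368 and 4508 bp, and the right arm 2352, 6624 and 5366 bp. Gaps under 1 kb made up 33.1% of all combined gaps on III and 35.2% in the centre, against 28.5% on the other 5 chromosomes. In replicate 1 they made up 17.9% on III and 18.3% on the others. The shares of replicate 2 were 23.7% and 20.4%.

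Chromosome III had no stretch without combined peaks longer than 83.9 kb. Its 5 longest ran 83.9 kb from 699152 to 783092, 82.8 kb from 6722574 to 6805364, 67.4 kb from 2620077 to 2687474, 64.4 kb from 2882111 to 2946528 and 61.6 kb from 12716160 to 12777712. Of these, 3 lay on the left arm, 1 in the centre and 1 on the right arm. No replicate peak lay wholly inside any of these 5 stretches. Few could have, since 99.6% of replicate 1 peaks and 98.6% of replicate 2 peaks on III overlapped a combined peak. A replicate 1 peak reached into the stretch from 6722574, and 1 peak of each replicate into that from 2882111. III had 11 gaps of at least 50 kb, against 13 on I, 27 on II, 28 on IV, 55 on V and 38 on X. These counts are not adjusted for length, and III is the shortest of the 6 chromosomes. The longest gap of I, 79.0 kb, was shorter than that of III, and those of the others ran from 89.4 kb on II to 119.7 kb on X.

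Scores on III were like those elsewhere. The median combined score was 12.97 on III and 12.57 on the other chromosomes. In replicate 1 the medians were 203 and 200.1, and in replicate 2 they were 247 and 235. The upper 25% of the nuclear combined list by score held 26.2% of the III peaks, with 25% as the background, and 27.0% and 26.1% in the upper 25% of replicates 1 and 2.

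By domain, the combined medians were 14.97 on the left arm, 13.6 in the centre and 10.8 on the right arm. In replicate 1 they were 190 on the left arm, 218 in the centre and 192 on the right arm, and in replicate 2 they were 252, 245 and 247. The order of the domains thus differed between the lists. Among combined peaks found in both replicates the medians were 38.6 on the left arm, 41.1 in the centre and 39.7 on the right arm, and among those found in neither they were 5.44, 5.12 and 5.13. Peaks found in neither replicate made up 39.1% on the left arm, 31.9% in the centre and 41.3% on the right arm. On the other 5 chromosomes together they made up 37.5%.

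Replicate support followed the score closely, a relation that the limits of the lists may build in, which was not tested. Scores started at 50.03 in each replicate list and at 1.31 in the combined list, which may rest on the same libraries. A weak combined peak may thus lie under the limit of the replicate lists. Shares by score class were not counted on the other chromosomes. The combined peaks of III were divided by score into 4 classes of about equal size. Of the lowest, with scores of 1.31 to 5.90, 2.30% were found in both replicates and 86.6% in neither. The second class, up to 12.97, had 8.35% and 53.01%, and the third, up to 33.9, had 61.2% and 4.63%. In the highest class, 99.2% were found in both and none of its 517 peaks in neither. In the third class the centre had 66.1% found in both, the left arm 56.5% and the right arm 56.8%.

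The replicates shared most of their sites on III. Of the replicate 1 peaks, 909 overlapped a replicate 2 peak, or 86.3% (84.1 to 88.3), with 87.3% over all nuclear chromosomes as the background. Of the replicate 2 peaks, 923 overlapped a replicate 1 peak, or 74.5% (72.0 to 76.8), with 74.7% as the background. For replicate 1 the share was 83.1% on the left arm, 90.0% in the centre and 82.2% on the right arm. For replicate 2 it was 78.8% on the left arm (73.5 to 83.3), 73.2% in the centre (69.7 to 76.4) and 73.7% on the right arm (68.5 to 78.2), with intervals that overlap. In the longest dense run of the centre, from 7405446 to 7441473, 5 of 28 replicate 2 peaks overlapped a replicate 1 peak. Without that run, an alternative added after the data were seen, the replicate 2 share in the centre was 75.6%.

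Where peaks of the replicates overlapped one to one, their positions matched within a fraction of a peak width. The 858 such pairs on III had midpoints a median of 25 bp apart, and 90.9% lay within 100 bp of each other. Between their scores Spearman's rho was 0.81, and Pearson's r of the log10 values was 0.82, without a p since peaks are not independent samples. By domain, rho was 0.78 on the left arm, 0.81 in the centre and 0.85 on the right arm. On the other chromosomes it ran from 0.71 on X to 0.81 on I. Replicate 2 had the higher score in 648 pairs, or 75.5%, with a median ratio to replicate 1 of 1.45. That ratio was 1.43 on the left arm, 1.46 in the centre and 1.43 on the right arm, and from 1.32 on IV to 1.48 on X elsewhere. Widths did not shift in the same way, with a median width ratio of 1.01.

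**Figure D3:**
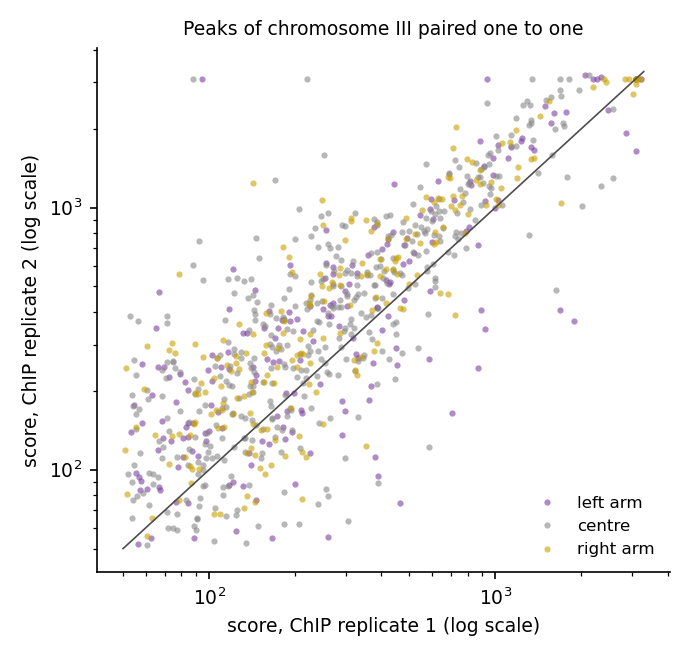
Peak score in ChIP replicate 2 (vertical axis, log scale) against ChIP replicate 1 (horizontal axis, log scale) for the 858 pairs of chromosome III that overlap one to one, coloured by domain; the line marks equal scores. Most points, 648 of 858, lie above the line, and 3 stand apart at the upper left with a replicate 2 score of 3100.

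A few pairs departed far from that ratio. The pair from 7594606 to 7597289 in replicate 1 scored 3100 in replicate 2 and 87.5 in replicate 1, although the peaks were 2696 and 2684 bp wide and their midpoints 8 bp apart. The pair from 3334289 to 3337071 scored 3100 and 94.3, with widths of 2782 and 2783 bp. The pair from 7444263 to 7446588 scored 3100 and 219, with widths of 2323 and 2326 bp. In these 3 pairs the replicates called nearly the same interval, with different scores. Because many peaks are tied at 3100, no exact ratio is given for them. At the other extreme, the pair at 2965870 scored 74.6 in replicate 2 and 463 in replicate 1, that at 834763 scored 370.1 and 1883, and that at 9758701 scored 122 and 587. Their replicate 2 peaks were narrower, 254, 574 and 388 bp against 544, 1534 and 508 bp.

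Of the 10 highest-scored combined peaks of III found in both replicates, 4 lay on the left arm, 2 in the centre and 4 on the right arm. The arms hold 1040 of the 2071 combined peaks, and the upper 25% of the combined list held 251 peaks of the arms and 291 of the centre. The highest, scored 160.4 in the combined list, was on the right arm, spanning 10807078 to 10808581. It lay 47.3 kb after the combined peak before it and scored 2721 in replicate 2 and 3016 in replicate 1. Within that stretch lay 1 replicate 1 peak, with 53.6, and 1 replicate 2 peak, with 99.9, neither in the combined list. The others of the right arm lay from 13643181 to 13643980 with 159, from 10758853 to 10759778 with 157 and from 11035961 to 11036588 with 153. The last of these was 628 bp wide, the narrowest of the 10.

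On the left arm the highest, from 1920792 to 1921784, scored 158 in the combined list and 3100 in each replicate. The peak from 1924758 to 1925689, with 147, lies close to it and also scored 3100 in each replicate. The other peaks of the left arm lay from 1618435 to 1619499 with 158 and from 1080293 to 1081096 with 149.8. In the centre the highest lay from 3843575 to 3846316, with 157, and from 4018594 to 4020266, with 155. The next of the centre, from 8020616 to 8021201, scored 143 and ranked 14 on III. Both leading peaks of the centre lie near the left bound. A replicate score of 3100 is a value at which many peaks are tied: 20 peaks of III reached it or passed it in replicate 1 and 35 in replicate 2.

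Of the broadest peaks on III found in both replicates, 2 lay next to each other near the right end. They ran from 13584141 to 13592183 (8043 bp) and from 13592286 to 13599144 (6859 bp), with combined scores of 28.6 and 35.5, ranks 617 and 496 on III. Together they span 15.004 kb, ending 185 kb before the last peak of the chromosome. The replicate lists covered the same stretch with many smaller peaks, 10 in replicate 1 and 14 in replicate 2, the widest 3923 and 2192 bp. These covered 92.5% and 87.7% of the stretch. The region was thus nearly covered in all 3 lists but divided differently in each. The next broadest, from 5938600 to 5944056 in the centre (5457 bp), scored 118 in the combined list and 3100 in each replicate.

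Chromosome III had 3 runs of at least 10 combined peaks with gaps of at most 1500 bp, with 62 peaks or 2.99% of its total. The other chromosomes had 2 (X) to 5 (II) such runs, with 1.27% to 3.099% of their peaks. The longest run of III, from 7405446 to 7441473, held 42 peaks over 36.0 kb. Combined peaks covered 63.6% of it, with a median score of 5.09 and none above 12.7. Replicate 2 had 28 peaks in it with scores of 50.8 to 604, covering 52.7%, and replicate 1 had 4 with scores of 53.7 to 115, covering 12.4%. Of the 42 combined peaks, 7 were found in both replicates, 22 in replicate 2 alone, 13 in neither and 0 in replicate 1 alone.

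Just beyond the right end of that run, each list held a peak scored above all of its peaks in the run. Only that of replicate 2 was among the highest of III. A combined peak from 7444288 to 7448109 scored 34.6, rank 504 on III. In replicate 2 the same stretch held a peak from 7444291 to 7446613 at 3100 and a second, with no partner in replicate 1, from 7446630 to 7448859 at 1944. In replicate 1 it held 1 peak, from 7444263 to 7446588, at 219, rank 500 on III and near the replicate 1 median of 203. That second peak of replicate 2 was named after its values were seen. In the run itself replicate 2 had more peaks, and their median score was 95.4, against 72.7 for the 4 of replicate 1. One-to-one pairs over all of III had a median ratio of 1.45, and of the 3 such pairs in the run, 1 had the lower score in replicate 2, 64.6 against 90.8 in replicate 1.

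**Figure D4:**
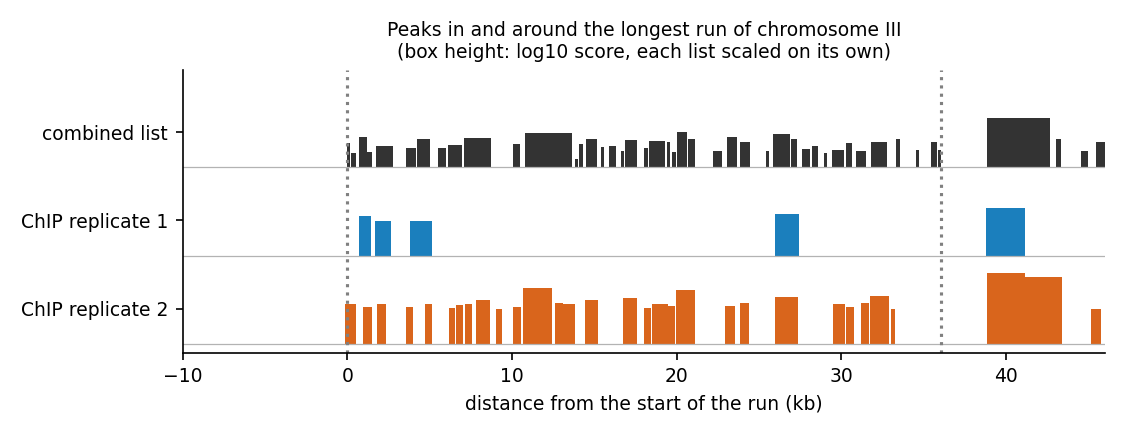
Peaks in the longest run of chromosome III and within 10 kb of it, as boxes at their distance from the start of the run (horizontal axis, kb), 1 row per list; box height is log10 of the score, scaled within each list, and dotted lines mark the ends of the run. Replicate 2 has 28 peaks in the run and replicate 1 has 4, and the highest boxes of each row stand just right of the run.

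The other runs were shorter. One in the centre, from 4502585 to 4508718 (6.13 kb), held 10 combined peaks, 1 of which reached 106; replicate 1 had 3 peaks there and replicate 2 had 4. One on the right arm, from 13075054 to 13085822 (10.8 kb), held 10 combined peaks with scores of 2.79 to 11.7 that covered 85.2% of it. Replicate 1 had 4 peaks in it, up to 111, and replicate 2 had 11, up to 168.2.

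Peaks listed in a single replicate were mostly weak. The 144 replicate 1 peaks of III without a partner had a median score of 79.8, against 248 for those with one, and the 316 of replicate 2 had 101 against 369. The highest of replicate 1 lay in the centre from 6336537 to 6337506 with 1101, on the left arm from 1749395 to 1750146 with 586 and on the right arm from 11727341 to 11728058 with 467. The highest of replicate 2 lay on the left arm from 62050 to 64276 with 2600, in the centre from 10224521 to 10225912 with 2444 and on the right arm from 11251438 to 11252111 with 438. All 6 of these regions held a combined peak, with top scores of 24.78 to 58.4. The highest combined peaks found in neither replicate lay on the left arm from 2494753 to 2495013 with 22.8, in the centre from 7597827 to 7598049 with 17.8 and on the right arm from 13783353 to 13783723 with 17.7.

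Almost all replicate peaks of III were in the combined list: 1049 of replicate 1, or 99.6%, and 1222 of replicate 2, or 98.6%. The share over all nuclear chromosomes was not counted, so these values are not given as a trait of III. The 4 of replicate 1 that were not scored 53.2 to 91.4. The 17 of replicate 2 scored 50.8 to 299, and the highest of them was the first peak of the chromosome, from 1 to 215. The first peak of replicate 1 lay from 25582 to 25864 with 83.2 and that of the combined list from 14745 to 14971 with 5.76. At the right end the last peaks were close together in the 3 lists: 13782141 to 13783063 in replicate 1 with 91.2, 13782298 to 13783054 in replicate 2 with 194, and 13783353 to 13783723 in the combined list.

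Beside the other chromosomes, III stood first in density in all 3 lists. Its density was 150.2 peaks per Mb against 113 on the other 5 in the combined list, 1.33 times as high. Replicate 1, with 76.4 and 57.0 peaks per Mb, gave 1.34 and replicate 2, with 89.9 and 66.6, gave 1.349 (mean 1.345 ± 0.006, SD, n = 2). Its covered share was also the highest, 7.15% against 5.26% in the combined list, 4.53% against 3.305% in replicate 1 and 5.15% against 3.86% in replicate 2. Of peaks found in both replicates it had 64.2 per Mb, followed by I with 61.2, and of peaks found in neither 54.3, followed by I with 53.01. III led in each class of support. With 1 chromosome III, its rank among 6 is a description and no test of it was made.

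For whole lists, the log2 ratio of arms to centre on III, -0.10 in the combined list, -0.12 in replicate 1 and -0.30 in replicate 2, lay inside the range of the other 5 chromosomes, which was -0.18 to 0.15 in the combined list, -0.22 to 0.08 in replicate 1 and -0.32 to 0.10 in replicate 2. These ranges rest on the recalled bounds. With 3 equal parts III had -0.09, -0.05 and -0.24, and the others ran from -0.12 to 0.13, from -0.14 to 0.08 and from -0.22 to 0.09, so in replicate 2 III was then the lowest of the 6. With the recalled bounds, the excess of the right arm over the left, 0.37 in the combined list, was second to II with 0.50, and in replicate 2 that of III, 0.37, was the highest of the 6, with II at 0.36, while in replicate 1, with 0.26, it was behind II (0.43) and X (0.36). With 3 equal parts III was second to II in the combined list, with 0.23 against 0.41, and in replicate 2, with 0.23 against 0.34, and in replicate 1, with 0.10, it was behind II (0.39) and X (0.32).

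**Figure D5:**
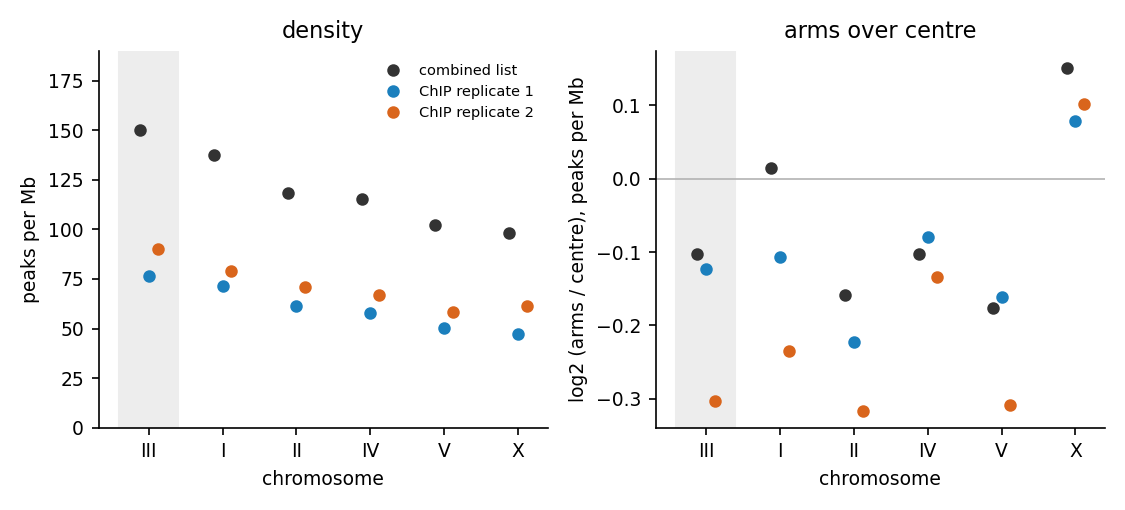
Peaks per Mb (left panel) and log2 ratio of peaks per Mb on the arms over the centre (right panel) for chromosome III, shaded, and the other chromosomes, 1 point for each list. Chromosome III is highest in density in each list (150.2 peaks per Mb for the combined list), while its ratio of arms to centre, for whole lists and with recalled bounds for the other chromosomes, lies within their range.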

How the data were processed

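The score of each peak is the authors' own value, deposited per peak; its scale is not named. Coordinates are on WormBase WS220, per the file headers. BWA and ce10 are named in the submitters' processing notes. Per the file headers and source column, MACS (version not named) made the replicate lists and MACS v2 the combined list. How the combined list was built, with which control and threshold, is not given in the sources used here. Scores started at 50.03 in each replicate list and at 1.31 in the combined list. Scores of the combined and the replicate lists were not compared in value.

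Counts and figures were made with numpy 2.4.6, scipy 1.17.1, pandas 2.3.3 and matplotlib 3.10.9 under Python 3.11.15, and the steps were checked on simulated lists. Chromosome length was the largest peak end over the 3 lists (13783723 for III). Peaks overlapped if they shared at least 1 bp. A gap belongs to the domain of the peak that follows it. The 3 peaks on mitochondrial DNA were left out of comparisons. Peaks were named by rule: the highest, widest, first, last, unshared, bounding and most discordant ones, the longest gaps, the runs, and the fullest and emptiest windows. Members, lists and rules were chosen with earlier results of these data known. Intervals are Wilson 95%, treating peaks as independent. No genome or annotation of WS220 was used here, so peaks were not assigned to genes and no sequence is shown. Input libraries were not analysed here.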

Additional observations from a re-analysis of the deposited data

How the results depend on the processing

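The higher density of III kept its direction in every alternative. The ratio to the other 5 chromosomes, 1.33, was 1.351 in the upper 50% by score, 1.41 in the upper 25%, 1.36 by covered bases, 1.345 as the replicate mean, 1.32 outside dense runs, and 1.32 in replicate 2 without the longest run of III, an alternative added after the data were seen; leaving out a replicate gave 1.34 to 1.349. The log2 ratio of arms to centre, -0.10, stayed below 0 in all 11 alternatives. It was -0.33 in the upper 25% by score, -0.24 in replicate 2 without the longest run (added), -0.04 outside dense runs, and -0.30 to -0.12 without one replicate. The excess of the right arm over the left, 0.37, kept its sign but was 0.18 in the upper 50%, 0.15 in the upper 25% and 0.23 with 3 equal parts, and 0.26 to 0.37 without one replicate. The share of combined peaks with a peak in both replicates was 42.7%. It was 43.3% in the upper 50% and 42.3% in the upper 25% by score of every list, within the counting interval. Such cuts keep the sizes of the lists in proportion and so limit the share alike, so this closeness is no check on it. The share was 37.95% with a reciprocal overlap of 50% and 40.3% by midpoint. With the limit set on the combined list only (added), it was 79.6% in the upper 50% and 98.9% in the upper 25% of that list. Under reciprocal overlap, 81.8% of replicate 1 and 69.5% of replicate 2 peaks were shared. Arms minus centre in median width, -35 bp, was -28.5 bp in replicate 1, -30.5 bp in replicate 2, -30 bp with 3 equal parts and -8.5 bp among peaks found in both replicates. In median gap, 153 bp, it was 1830 bp in replicate 2 and 2563 bp among peaks found in both. In median score, -1.24, it turned to 5.36 in replicate 2 and was -28 in replicate 1, each on its own scale, -0.035 with 3 equal parts, -0.91 without the tips and -1.87 among peaks found in both; the sign of this difference therefore depended on the list. Runs numbered 3, against 5 when gaps were limited to 1000 bp, and 1 when 15 peaks and gaps up to 3000 bp were asked for. The 10 highest peaks had been chosen from those found in both replicates by at least 1 bp. All 10 were also found in both by reciprocal overlap and by midpoint. The causes were not tested. No paired analysis was possible because only lists of the ChIP libraries were analysed here and no test was made. Chromosome lengths from a genome of the same build were not run. Without depth, absence from a list may mean only that a site fell under the limit of the caller.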
